A study of Mus musculus with 6 samples.

Results

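The mitochondrial ribosomal proteins are the nuclear-encoded proteins of the ribosome that works inside mitochondria. Their genes were chosen by name, as every row of the deposited gene table whose symbol is Mrpl or Mrps followed by a number and at most 1 letter. This gave 78 of 55401 genes, of which 51 encode large-subunit proteins and 26 encode small-subunit proteins. The last, Mrps36, carries the name but is known as a component of the 2-oxoglutarate dehydrogenase complex and is not part of the assembled ribosome. Mrps30 and Mrps18a are named for the small subunit and sit in the large one, where they are counted here. In the protein classes used here, 46 members are of bacterial type and 31 are specific to mitochondria. These classes do not strictly follow descent, since Mrps18a, a descendant of bacterial S18, is counted as mitochondria-specific.

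The samples were myotubes of C2C12, a mouse myoblast line that fuses into muscle fibre-like cells, kept in DMEM with 2% horse serum. All cultures received 100 pmol of siRNA for 3 days. In 3 of them it was the GL2 control siRNA against firefly luciferase, a gene that mouse cells lack, and in the other 3 the siRNA was directed against SENP7, which cleaves chains of the small modifier SUMO. RNA was poly(A)-selected and sequenced, the line is a single clone in origin, and the sources used here do not give the number of siRNA sequences.

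The mitoribosome translates the few mRNAs of the mitochondrial genome, which encode core subunits of the respiratory chain and of ATP synthase. Its rRNAs are made in the mitochondrion, while all of its proteins are translated in the cytosol and imported, so that a ribosome needs the products of both genomes. Compared with its bacterial ancestor it has lost rRNA and gained proteins, many of them on its surface, at the mRNA entry and around the central protuberance. Muscle fibres are rich in mitochondria, and differentiating myoblasts increase their content of respiratory chain proteins.

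The libraries held between 25223218 and 30865945 reads assigned to genes, and a tested mitoribosomal gene had 230 to 2310 reads in a library. The siRNA target Senp7 had normalized counts of 556.4, 616.4 and 648.8 in control libraries and 275.0, 279.2 and 346.7 in SENP7 libraries, a log2 fold change of -1.02 ± 0.11 (SE). All 10 myotube markers were present, with summed normalized counts of 590150 to 617500 in control and 639812 to 736430 in SENP7 libraries. Of the 10, Ckm (log2 fold change 1.00) and Mymk (0.45) rose and 0 fell by limma (20% called, against 20.9% of all genes). Without control replicate 3 the counts were 4 higher and 1 lower, against 15.6% and 16.5% of all genes. The part of these marker differences in the mitoribosomal values was not tested. The 3 adipocyte markers summed to at most 3.21 in any library and the 3 endothelial markers to at most 11.7, while the 3 macrophage markers summed to 38.3 to 57.9 with Adgre1 at 0 throughout. The 3 markers of undifferentiated myoblasts summed to 2417 to 3304 in control and 2808 to 3011 in SENP7 libraries, and 1 of them, Pax7, rose (log2 fold change 0.48). Control replicate 3 stood apart from the other controls on the first principal component of all genes, at -19.1 against -36.7 and -33.3, and counts of calls in the family are given with and without it.

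Short runs of bases upstream of these genes are printed first, since one of them recurred across the family. RefSeq (GRCm38.p6) promoter windows, 250 bases before to 50 after a start, were held for 69 of the 78 members, in 75 windows. The ETS-type core ccggaag, which GABP and other ETS factors are known to bind, was searched on both strands and was present in 26 of 75 windows (34.7%), against 8.86% of all 32851 windows in the table. On both strands too, a YY1 motif, spelled by the second run of capitals in the Mrps18a window below, was found in 5 windows (6.67% against 0.852%), the palindromic NRF1 motif in 3 (4% against 0.971%) and the ERR-type tcaaggtca in 0 (0% against 0.423%). The windows of members had a median GC content of 58.7%, against 52.7% over all windows, and the part of base composition in these shares was not tested. A match is a run of letters in a window and not a measured binding site. The 4 windows below are those of Mrpl42 and Mrps26, which rose after SENP7 siRNA and each had a single window, of Mrps33, which had the lowest fold change, and of Mrps18a, which holds 2 of the motifs. Capitals mark an ETS or YY1 match, which on the opposite strand reads cttccgg for ETS.
Mrpl42, chr10:95501900-95502199, minus strand: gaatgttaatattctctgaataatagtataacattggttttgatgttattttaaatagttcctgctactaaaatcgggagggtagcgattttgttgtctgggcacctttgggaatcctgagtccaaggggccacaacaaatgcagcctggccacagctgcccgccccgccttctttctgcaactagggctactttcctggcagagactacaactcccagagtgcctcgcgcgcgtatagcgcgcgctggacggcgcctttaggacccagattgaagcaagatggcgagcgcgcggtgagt
Mrps26, chr2:130563507-130563806, plus strand: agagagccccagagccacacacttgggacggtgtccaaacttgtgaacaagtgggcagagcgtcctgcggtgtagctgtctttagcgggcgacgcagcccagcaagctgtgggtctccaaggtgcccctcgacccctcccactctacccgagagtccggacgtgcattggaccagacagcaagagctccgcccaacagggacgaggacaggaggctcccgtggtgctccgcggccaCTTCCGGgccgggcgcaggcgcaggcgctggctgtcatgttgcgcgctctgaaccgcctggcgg
Mrps33, chr6:39810887-39811186, minus strand: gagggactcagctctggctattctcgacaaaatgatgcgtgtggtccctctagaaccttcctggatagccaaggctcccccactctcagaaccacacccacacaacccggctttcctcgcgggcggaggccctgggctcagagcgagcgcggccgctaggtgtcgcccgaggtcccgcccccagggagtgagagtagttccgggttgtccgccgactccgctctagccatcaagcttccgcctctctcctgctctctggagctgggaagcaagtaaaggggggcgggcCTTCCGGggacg
Mrps18a, chr17:46110754-46111053, plus strand: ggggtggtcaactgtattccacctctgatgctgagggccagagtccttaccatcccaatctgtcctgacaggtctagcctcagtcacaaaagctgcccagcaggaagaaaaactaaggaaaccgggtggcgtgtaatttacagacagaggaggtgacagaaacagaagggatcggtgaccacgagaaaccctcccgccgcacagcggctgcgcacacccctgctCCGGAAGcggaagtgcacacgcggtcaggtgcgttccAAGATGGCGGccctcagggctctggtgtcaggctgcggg
The Mrpl42 window holds no match to the 4 motifs. The Mrps26 window has the ETS core on the opposite strand from 14 bases before the start, and the Mrps33 window has it from position 39, counting the start as 1. In Mrps18a the ETS core begins 26 bases before the start and the YY1-type run at position 12. Mrpl48 rose as well and had more than 1 window, while Mrpl38 and Mrps35, which also rose, had none in the table. Over the 6 windows of the 3 members that rose and had any, the ETS core was in 2 (33.3%), against 34.7% of all member windows. The part of the motif in the fold changes was not tested.

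After SENP7 siRNA the transcripts of the mitoribosome stayed close to their control levels. Of the 77 members tested, 5 rose and 0 fell at an adjusted p under 0.05 (limma on log2(normalized count + 1), Benjamini-Hochberg over 14668 genes). Of all genes tested, 20.9% were called, 10.2% higher and 10.7% lower, so the family held fewer calls than its size would give at the background share. At an unadjusted p under 0.05 the count was 12 of 77 members, against 34.4% of all genes. edgeR's quasi-likelihood test on reads recovered from the deposited values called 5 members higher and 0 lower, with 20.6% of all genes called, and DESeq2 called 4 and 0, with 20.5%. Without control replicate 1 limma called 8 members higher (8.17% of all genes), without control replicate 2 it called 2 (5.99%), and without SENP7 replicate 1 or 2 it called 1, Mrpl38 (5.65% and 5.49%), each with 0 lower. Without control replicate 3 it called 4 members higher and 6 lower (15.6% and 16.5% of all genes), and after removal of trends on GC content and length 4 higher and 5 lower (24.3% of all genes in either direction). By the authors' deposited table, 2 members (Mrpl38 and Mrpl42) were higher and 0 lower at an adjusted p under 0.05, against 9.26% of all genes with a value there.

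The fold changes were small as well as few. The median log2 fold change of the 77 members was 0.05, against -0.0025 for all genes, with 49 members above 0 and 28 below. In these bulk samples a change in the make-up of the culture and a change in RNA per cell cannot be told apart. Values ran from -0.29 for Mrps33 to 0.32 for Mrpl38, which is a 1.22-fold lower mean at one end and a 1.25-fold higher mean at the other. The absolute value was under 0.1 in 45 members and under 0.2 in 64, and in 53 of the 77 the group means lay within 10% of each other. Every one of the 77 intervals of 95% confidence lay within 0.5 of 0 on the log2 scale, 44 lay within 0.3, and 65 crossed 0. Of the 5985 genes whose mean normalized count fell in the members' range, 273 to 1897, 20.99% were called and 7.37% had an absolute log2 fold change over 0.5, while 6.49% of members were called and 0 exceeded 0.5. The median absolute log2 fold change was 0.13 in those genes and 0.078 in the members, at median standard errors of 0.081 and 0.086. The plot of fold changes by subunit shows that most intervals overlap one another.

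**Figure D1:**
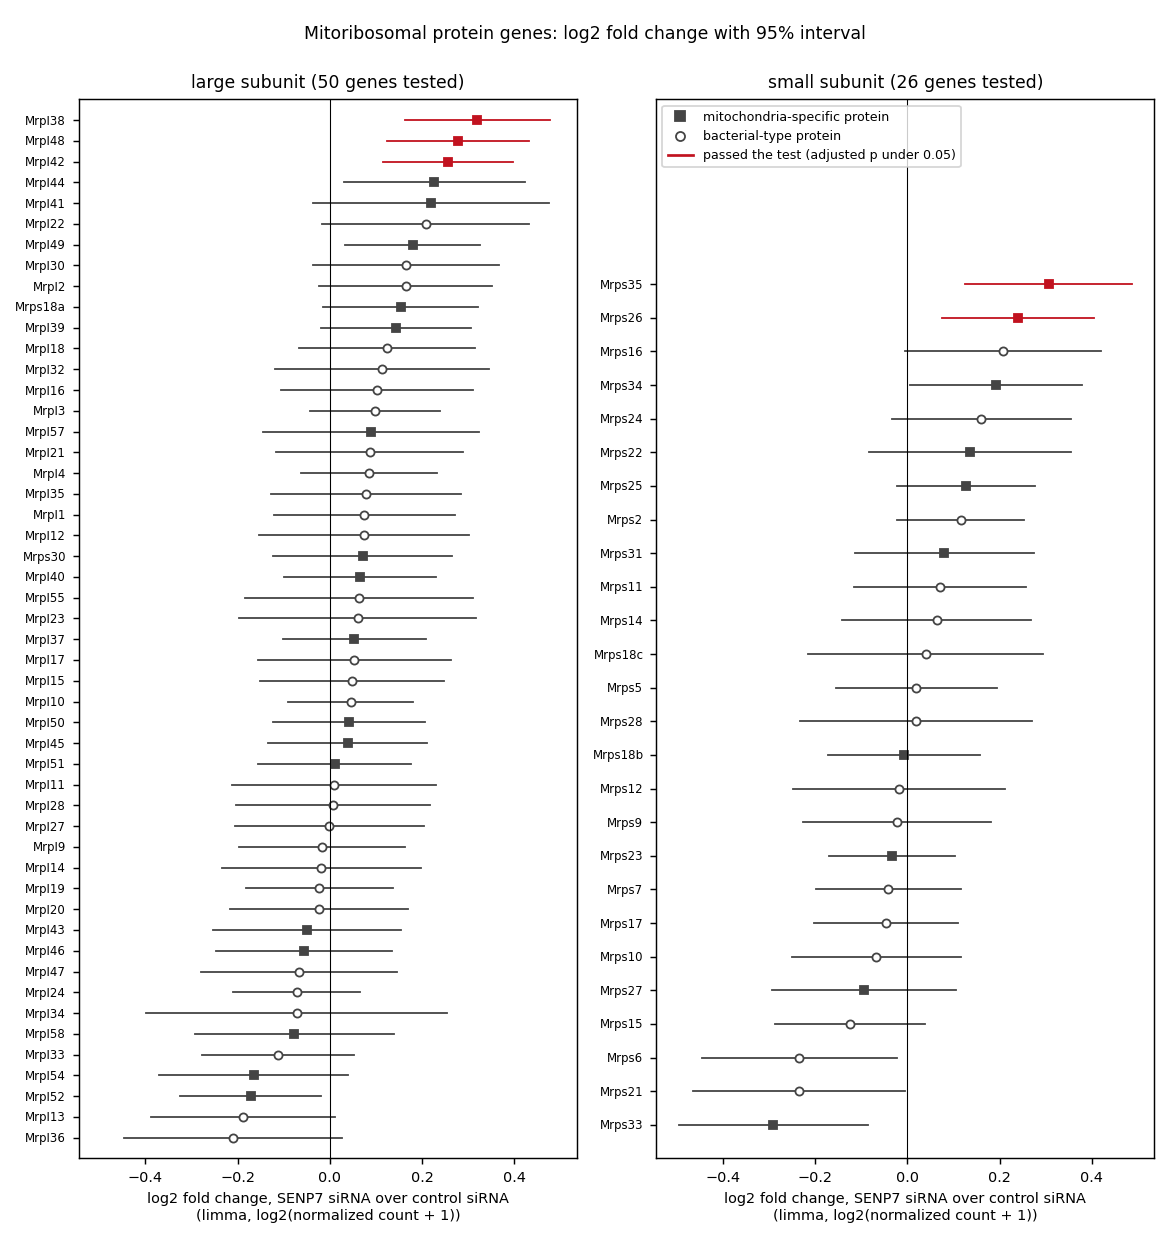
Log2 fold change of each tested mitoribosomal gene, SENP7 siRNA over control siRNA, with its 95% confidence interval (horizontal lines, 3 libraries per group), for 50 large-subunit genes on the left and 26 small-subunit genes on the right. Filled squares are mitochondria-specific proteins, open circles bacterial-type proteins, and red marks the 5 genes that passed the test, all of which are filled squares between 0.24 and 0.32.

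In the large subunit 3 of 50 tested members rose, Mrpl38, Mrpl42 and Mrpl48, and 0 fell (6% called, against 20.9% of all genes). The median log2 fold change was 0.06. Without control replicate 3 the counts were 3 higher and 3 lower, against 15.6% and 16.5% of all genes. Mrpl38, a mitochondria-specific protein of the central protuberance, is encoded on the minus strand of chromosome 11 (116131817 to 116138868) (GRCm38). It had normalized counts of 1407, 1362 and 1208 in control libraries and 1633, 1631 and 1691 in SENP7 libraries. The lowest SENP7 library stood above the highest control. The mean rose from 1326 ± 104 to 1652 ± 34.0 (SD, n = 3), a log2 fold change of 0.32 ± 0.07 (SE, limma adjusted p = 0.0122), and the test was passed under all 16 alternative settings, where the adjusted p ran up to 0.0495.

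Mrpl42, another mitochondria-specific large-subunit protein, is encoded on the minus strand of chromosome 10 (95480805 to 95501940). Its counts were 1749.8, 1809 and 1629 in control and 2049.6, 2146 and 1998 in SENP7 libraries. The groups did not overlap, and the log2 fold change was 0.26 ± 0.06 (limma adjusted p = 0.0195). Mrpl48, a second protein of the central protuberance, is encoded on the minus strand of chromosome 7 (100545751 to 100608301) and had 522, 492 and 528 in control against 618, 639 and 612 in SENP7 libraries. Here too the groups did not overlap, with control replicate 3 the highest of its group, and the log2 fold change was 0.28 ± 0.07 (limma adjusted p = 0.0201). Without SENP7 replicate 1 or 2 the adjusted p was 0.0753 and 0.0985 for Mrpl42 and 0.0798 and 0.0965 for Mrpl48, and Mrpl48 had 0.0845 without control replicate 2.

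In the small subunit 2 of 26 members rose, Mrps35 and Mrps26, and 0 fell (7.69% called, against 20.9% of all genes). The median was 0.02. Without control replicate 3 the counts were 1 higher and 3 lower, against 15.6% and 16.5% of all genes. Mrps35, a mitochondria-specific protein of the subunit's head, is encoded on the plus strand of chromosome 6 (147042764 to 147073991). It had 465, 434 and 409.5 in control and 549, 558 and 509.7 in SENP7 libraries, with no overlap, a log2 fold change of 0.31 ± 0.08 (limma adjusted p = 0.026). Mrps26, also mitochondria-specific, is encoded on the plus strand of chromosome 2 (130563742 to 130568695). Its counts were 934, 860.0 and 789 in control and 1013, 1001 and 1029.7 in SENP7 libraries. The SENP7 libraries lay close together above a more widely spread control group, and the log2 fold change was 0.24 ± 0.07 (limma adjusted p = 0.0473).

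Each of these calls was lost when some single libraries were left out. Mrps35 lost it without control replicate 2 (0.089), without SENP7 replicate 1 or 2 (0.106 and 0.113), and after removal of trends on GC content and length (0.0696). Mrps26 kept it in 9 of 16 settings and lost it without control replicate 2 or 3 or any SENP7 library, by DESeq2 and with no filter, where the adjusted p ran from 0.0503 to 0.139.

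**Figure D2:**
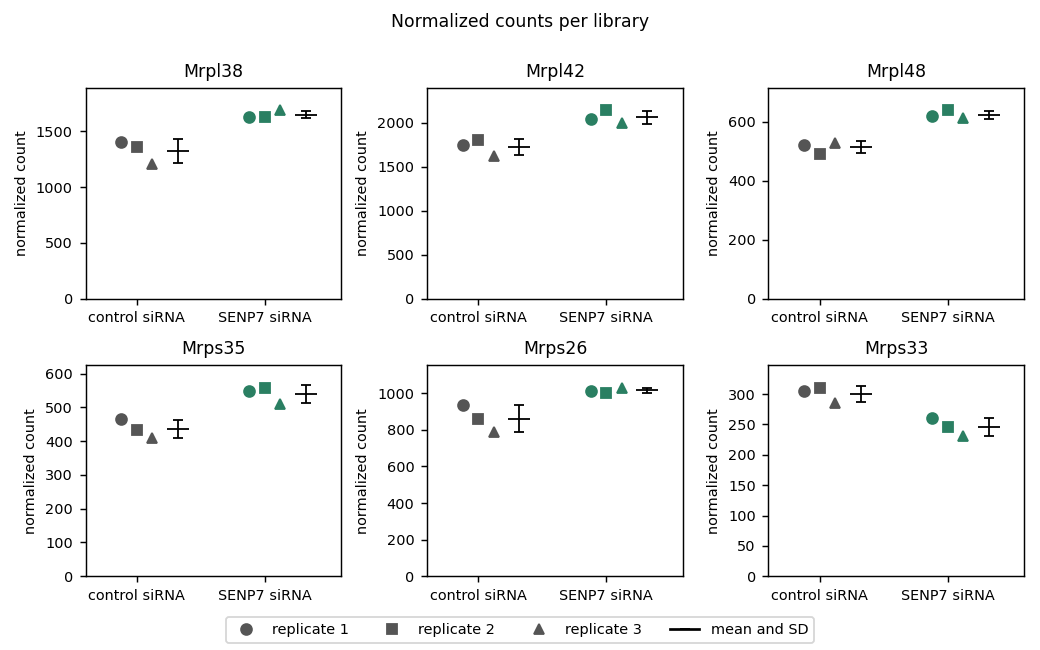
Normalized count in each library of the 5 genes that rose and of Mrps33, by group, with circles, squares and triangles for replicates 1, 2 and 3 and the mean and SD (n = 3) beside them on axes that start at 0. In the 5 genes that rose every SENP7 library lies above every control, and in Mrps33 every SENP7 library lies below every control, from 231 to 260.0 against 286 to 310.4.

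The opposite end of the range held Mrps33, Mrps21, Mrps6 and Mrpl36, and no gene there passed the test. Mrps33, a mitochondria-specific small-subunit protein, is encoded on the minus strand of chromosome 6 (39801804 to 39810988). It had 305, 310.4 and 286 in control and 260.0, 246 and 231 in SENP7 libraries. All 3 SENP7 values were the lower ones, and the log2 fold change of -0.29 ± 0.09 missed the threshold (limma adjusted p = 0.0511). It passed in 5 of the 16 alternative settings. Mrps21, homolog of bacterial S21, had 1348, 1107 and 1028 in control and 999, 1033 and 910.4 in SENP7 libraries, so that the groups overlapped, at a log2 fold change of -0.24 ± 0.10 (limma adjusted p = 0.137). Mrpl52 and Mrps6, whose groups did not overlap either, had -0.17 and -0.23 (limma adjusted p = 0.106 and 0.113), and Mrpl36, with overlap, had -0.21 (0.191).

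All 3 SENP7 libraries exceeded all controls in 10 members, and all lay below in 3. Over all genes tested the shares were 19.3% and 20.4%. Besides the 5 that rose, the 10 were Mrpl44, Mrpl49, Mrps2, Mrps25 and Mrps36, named here for this reason after their values were seen, with log2 fold changes of 0.12 to 0.23. Mrpl44, which has an RNase III-like fold, had 629, 681 and 584 in control and 807, 724 and 686 in SENP7 libraries (log2 fold change 0.23 ± 0.09, limma adjusted p = 0.0988).

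Grouped by these protein classes, the 5 genes that rose were all mitochondria-specific, 5 of 30 tested (16.7%, against 20.9% of all genes). Of the 46 bacterial-type members, 0 passed in either direction. The median log2 fold change was 0.08 in the first class and 0.03 in the second. At an unadjusted p under 0.05 the counts were 10 (33.3%) and 2 (4.35%), against 34.4% of all genes, so the mitochondria-specific class lay near the background share. The split did not hold without control replicate 3, where 4 mitochondria-specific members were higher and 2 lower, and 4 bacterial-type members, Mrpl36, Mrps21, Mrps6 and Mrpl13, were lower. Removal of trends on GC content and length also called Mrpl36, Mrps21 and Mrps6 lower. The difference between the classes itself was not tested. Mrps33, at the low end, is also mitochondria-specific.

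Of the 16 members listed for a known role, 0 passed the test by limma, against 20.9% of all genes. Only 1, Mrpl44, had an unadjusted p under 0.05, against 34.4% of all genes. Those of the stalk, where translation factors dock, were Mrpl12, which also binds the mitochondrial RNA polymerase, Mrpl10, which anchors it, and Mrpl11 at the stalk base. Mrpl12 had 1956, 1693 and 1433 in control and 1762, 1798 and 1747 in SENP7 libraries. The SENP7 values lay inside the control range, and the log2 fold change was 0.07 ± 0.10, which turned to -0.04 without control replicate 3. Mrpl10 (0.04 ± 0.06) and Mrpl11 (0.01 ± 0.10) did not pass either.

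At the decoding site, Mrps12, homolog of the bacterial protein in which streptomycin resistance arises, had a log2 fold change of -0.02 ± 0.10. Mrps5, whose bacterial homolog affects decoding accuracy, had 0.02 ± 0.08, and Mrps7, an early-binding protein of the head, had -0.04 ± 0.07. At the catalytic side, Mrpl3 had 0.10 ± 0.06. Mrpl45, which lies at the tunnel exit and tethers the ribosome to the inner membrane, had 0.04 ± 0.08. Mrpl58, a peptidyl-tRNA hydrolase that became a ribosomal protein, had 769, 769 and 635 in SENP7 against 810.4, 778 and 699 in control libraries, overlapping groups with a log2 fold change of -0.08 ± 0.10. Mrps27, a pentatricopeptide repeat protein, had -0.09 ± 0.09 and Mrpl41 0.22 ± 0.11. None of these passed, with limma adjusted p from 0.204 to 0.966 over the stalk, decoding, catalytic and last-named members.

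Bacterial S18 has 3 descendants in this ribosome. Mrps18c occupies the place of S18, Mrps18b sits elsewhere in the small subunit and Mrps18a in the large subunit. Per kilobase of exon their control levels were 418 ± 49.96, 326 ± 23.2 and 262 ± 21.9 (SD, n = 3). The SD covers the spread of libraries alone, while the order also rests on exon lengths of 1076, 2089 and 3690 bases. Another gene shares 23.2% of the exon bases of Mrps18c on the same strand and 30.5% of those of Mrps18b on the opposite strand. Differences in level between the 3 genes were not tested. Their log2 fold changes, in the same order, were 0.04 ± 0.11, -0.01 ± 0.07 and 0.15 ± 0.07, and none passed (limma adjusted p = 0.835, 0.959 and 0.177). Mrps36 had 322, 316 and 310.3 in control and 364, 332 and 333 in SENP7 libraries, at 0.12 ± 0.08 (limma adjusted p = 0.355).

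Levels differed far more between members than between groups. Per kilobase of exon, taken over the union of annotated isoforms, the median control level was 416 in the large subunit and 262 in the small subunit. The large subunit ran from 63.1 ± 2.39 for Mrpl48 to 1247 ± 85.5 for Mrpl52, and the small subunit from 50.5 ± 3.20 for Mrps35 to 1571 ± 225 for Mrps21. The lowest and highest members thus lay 31.1-fold apart, although their proteins enter the ribosome in single copies apart from Mrpl12. The union of isoforms counts rarely used exons as length, and both Mrpl48 and Mrps35 have over 8 kilobases of it (8.15 and 8.63). Control and SENP7 levels per kilobase followed each other across the 77 members with a Pearson r of 0.993 on the log2 scale, a description in which both axes share exon length and the members are not independent.

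**Figure D3:**
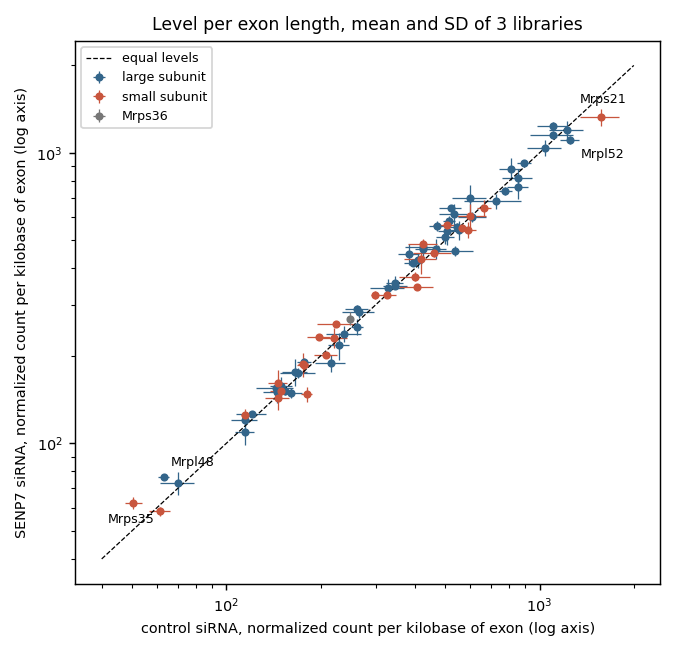
Mean normalized count per kilobase of exon for each tested member, control siRNA on the horizontal and SENP7 siRNA on the vertical log axis, with SD over 3 libraries as bars and large-subunit, small-subunit and Mrps36 points in separate colours. The points follow the dashed line of equal levels from Mrps35 at 50.5 to Mrps21 at 1571 on the control axis.

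Mrpl53 was not tested. It had 0, 5.56 and 0 in control and 1.77, 0 and 1.89 in SENP7 libraries, and 88.0% of its exon bases on chromosome 6 are also annotated to another gene on the same strand. Of the 78 members, 45 shared no exon base with another gene, 14 overlapped one on the opposite strand over more than 10% of their exons and 5 did on the same strand. The sources used here do not give the strand setting of the counting or the treatment of reads shared by overlapping genes. Those values, with that of Mrpl53, may therefore include reads of the partner or lack shared reads. Of the 5 genes that rose, Mrpl38, Mrpl42 and Mrps35 had no overlap, Mrps26 had 0.184% and Mrpl48 8.69%.

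The members lie on 17 autosomes, with 11 of them on chromosome 11. An opposite-strand protein-coding start within 1000 bases was annotated for 33 of 78 members (42.3%), against 10.8% of 22028 protein-coding genes. Such pairs include Mrpl48 with Rab6a, Mrps12 with Sars2, and Mrpl46 with Mrps11, in which both partners are members. Of the 29 neighbours outside the family that were tested, 0 passed by limma, against 20.9% of all genes. An unadjusted p under 0.05 was found for 2 (6.90%, against 34.4% of all genes), and the median log2 fold change was 0.03.

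The members moved together from library to library. Control replicate 3 was the lowest control in 70 of 77 members (90.9%), against 41.3% of the genes in the same range of means, and it lay below all 5 other libraries in 52. Control replicate 1 was the highest control in 61 members. Among the SENP7 libraries, replicate 3 was the lowest in 61 (79.2%). The median log2 deviation from a member's own mean was 0.089, -0.001 and -0.143 for control replicates 1, 2 and 3, and it was 0.063, 0.054 and -0.057 for those of the SENP7 group. The genes in the same range of means had medians between -0.013 and 0.012. Summed over the 77 members, normalized counts were 74815, 69911 and 63736 in control and 72894, 73333 and 68229 in SENP7 libraries. The SENP7 sums lay within the control range.

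The same libraries stood out in other gene groups. The cytosolic ribosomal protein genes, which encode the ribosome that makes these proteins, had median deviations of 0.256, 0.119 and -0.159 in the controls and -0.051, -0.026 and -0.134 in SENP7 libraries. Complex I subunit genes, whose mitochondrially encoded partners the mitoribosome translates, had 0.052, -0.083 and -0.215 and then 0.103, 0.124 and 0.009. The part of these library differences in the mitoribosomal values was not tested. The plot of deviations by library shows the 3 groups beside the genes of the same range.

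**Figure D4:**
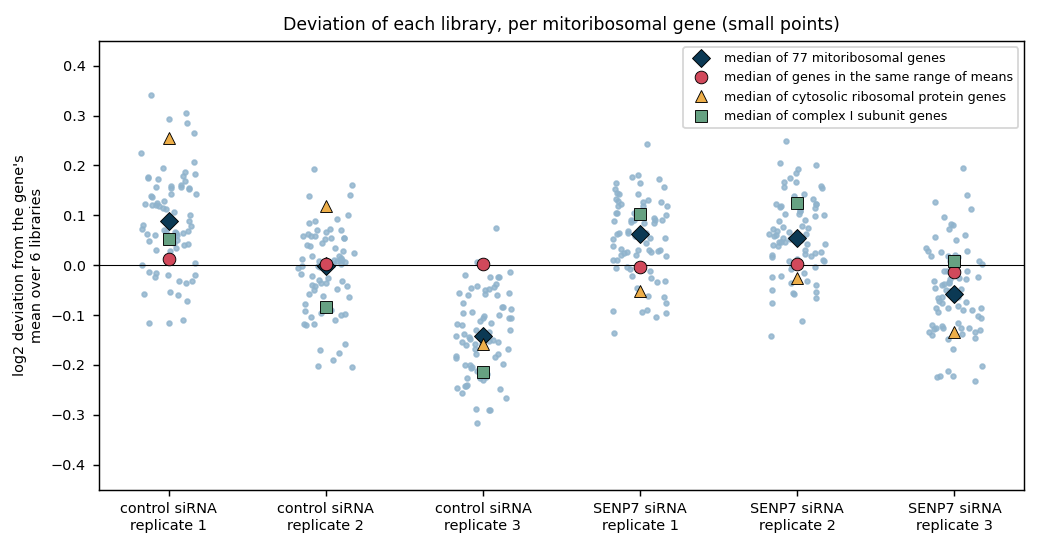
Log2 deviation of each library from a gene's mean over 6 libraries, with a small point for each of 77 mitoribosomal genes and large symbols for the medians of the mitoribosomal genes (diamonds), genes in the same range of means (circles), cytosolic ribosomal protein genes (triangles) and complex I genes (squares). The diamonds go from 0.089 in control replicate 1 to -0.143 in control replicate 3, and the circles stay between -0.013 and 0.012.

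Leaving out control replicate 3 changed which members passed. Without it 4 members were higher (Mrpl38, Mrpl42, Mrpl48 and Mrps35) and 6 were lower, while 15.6% and 16.5% of all genes were called higher and lower. The 6 were Mrpl36 (log2 fold change -0.32), Mrps33 (-0.33), Mrps21 (-0.32), Mrps6 (-0.31), Mrpl13 (-0.25) and Mrpl52 (-0.22), with limma adjusted p from 0.0103 to 0.0327. The median over members moved from 0.05 to -0.03, with 34 above 0 and 43 below. Of the 5 genes that rose with all libraries, Mrps26 missed the threshold, at 0.18 (limma adjusted p = 0.061). The sign of the family's median therefore depended on this 1 library, while the calls of the other 4 genes did not.

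**Figure D5:**
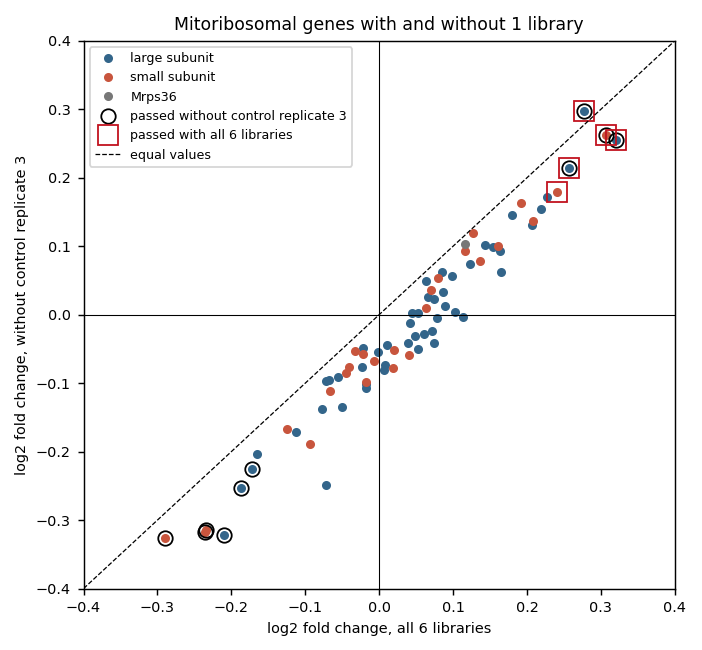
Log2 fold change of each tested member with all 6 libraries (horizontal) and without control replicate 3 (vertical), coloured by subunit, with red squares around the 5 members that passed with all libraries and black circles around the 10 that passed without it. Nearly all points lie below the dashed line of equal values, and the 6 circled points at the lower left, between -0.33 and -0.22, passed without that library and not with it.

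The family was set beside 2 other groups. Of 79 cytosolic ribosomal protein genes tested, 1 rose and 3 fell (5.06% called, against 20.9% of all genes), with a median of -0.15. Without control replicate 3 the count of those lower was 63, while 16.5% of all genes were called lower. Of 37 complex I subunit genes, 10 rose and 0 fell (27.0% called), with a median of 0.15. Without control replicate 3 the counts were 10 higher and 1 lower, against 15.6% and 16.5% of all genes. The mitoribosomal median of 0.05 lay between them, and differences between the groups were not tested.

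The rRNAs that the members are assembled on were higher. The 12S rRNA mt-Rnr1 had 8156, 7664 and 9980.0 in control and 12110.2, 12370.1 and 10256 in SENP7 libraries (log2 fold change 0.43 ± 0.11, limma adjusted p = 0.0247). The 16S rRNA mt-Rnr2 had 42729, 39555 and 42082 in control and 55909.6, 57086 and 57597 in SENP7 libraries (0.46 ± 0.07, limma adjusted p = 0.00334). No SENP7 library overlapped a control for either. These are counts in poly(A)-selected RNA, so they follow the captured part of the rRNA. Of the 13 mitochondrial mRNAs, 10 were tested. Of these, 5 rose and 0 fell, while 10.2% of all genes were called higher and 10.7% lower. Their median log2 fold change was 0.33, with 8 above 0 and 2 below, the lowest at -0.029. Both rRNAs and the median of the tested mitochondrial mRNAs thus lay above the mitoribosomal median of 0.05, without a test of that difference.

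Proteins of the same ribosome whose genes bear other names gave 1 call among 5, a rise. This share is close to the 20.9% of all genes called in either direction. Gadd45gip1, also known as CRIF1 and part of the central protuberance, had 1209, 1046 and 1087 in control and 1304, 1329.8 and 1412 in SENP7 libraries (log2 fold change 0.28 ± 0.07, limma adjusted p = 0.0245). The groups did not overlap, and 42.0% of its exon bases lie opposite another gene. Without control replicate 2 its adjusted p was 0.105, and without SENP7 replicate 1, 2 or 3 it ran from 0.0651 to 0.0835. Dap3, a GTP-binding protein of the small subunit, had 0.17, Ptcd3 0.005, Aurkaip1 -0.03 and Chchd1 -0.18, and none of these passed.

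The lists for the other machinery of mitochondrial gene expression each held a smaller share of calls than all genes, of which 20.9% were called. The highest shares were 15.4% for transcription and RNA processing and 13.3% for translation factors. At an unadjusted p under 0.05 the translation factors, at 33.3%, lay near the 34.4% of all genes, and the other lists lay lower. The lists are short, and their differences from all genes were not tested. Of 26 genes for mitoribosome assembly and rRNA maturation 1 rose and 0 fell (median 0.05), the pseudouridine synthase Rpusd3, with 166, 168 and 177 in control against 203, 214 and 232 in SENP7 libraries (log2 fold change 0.34 ± 0.10, limma adjusted p = 0.0422). It passed in 8 of 16 settings, with an adjusted p of up to 0.124, and 65.2% of its exon bases lie opposite another gene. Leaving out control replicate 1 or 2 or any SENP7 library ended that call, as did DESeq2, quantile scaling and no filter.

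Of 15 translation factors and associated proteins 2 rose and 0 fell (median 0.09). Lrpprc, which stabilises mitochondrial mRNAs, had 2344, 2315 and 2572 in control and 3210.1, 3084 and 3239.8 in SENP7 libraries. Its SENP7 values lay well above all controls (log2 fold change 0.40 ± 0.06, limma adjusted p = 0.00246), and it passed in 16 of 16 settings. Oxa1l, the insertase that receives the nascent chain, had 0.20 ± 0.06 (limma adjusted p = 0.0366), a call lost without control replicate 1 or 2 or any SENP7 library and with no filter on low genes (0.0563 to 0.133).

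Of 20 genes for charging mitochondrial tRNAs 2 rose and 0 fell (median 0.07). Mars2, the methionyl-tRNA synthetase, had 601, 639.7 and 633 in control and 898, 833 and 869 in SENP7 libraries. The groups stood clear of each other, with a 1.39-fold higher mean (log2 fold change 0.47 ± 0.07, limma adjusted p = 0.00151), and it too passed in 16 of 16 settings. Ears2, the glutamyl-tRNA synthetase, had 0.30 ± 0.09 (limma adjusted p = 0.0357) and lost the call without control replicate 1 or any SENP7 library and with no filter (0.0608 to 0.135).

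Of 13 genes for mitochondrial transcription and RNA processing 1 rose and 1 fell (median 0.03). Elac2, which cuts the 3′ ends of tRNA precursors, had 1573, 1629 and 1606 in control and 1294, 1333 and 1268 in SENP7 libraries. Every SENP7 value lay below every control (log2 fold change -0.30 ± 0.05, limma adjusted p = 0.00525), and the call held in 16 of 16 settings. Hsd17b10, a subunit of mitochondrial RNase P that acts on the 5′ ends, rose by 0.30 ± 0.07 (limma adjusted p = 0.0154) and missed the threshold without SENP7 replicate 1 or 2 (0.0738 and 0.0769).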

How the data were processed

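Gene expression was measured by poly(A) RNA-seq in 6 libraries, 3 per siRNA group, which the submitters describe as biological replicates. The submitters' processing notes name DESeq2, featureCounts 1.6.4, STAR 2.6.1d, Trim Galore 0.6.4 and bcl2fastq with the build GRCm38.p6. The sources used here do not give the counting options or the treatment of reads shared with pseudogenes. The deposited table gave a normalized signal per gene and library, each read count divided by 1 factor per library, as the values themselves show within 0.1 read. It also held the authors' log2 fold change with its standard error, a Wald score, and a p-value with its adjusted value, per the file headers. Of these only the log2 values and adjusted p-values of the authors were used.

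From these values log2(normalized count + 1) was computed, a scale that understates the fold changes of low genes, and limma 3.58.1 in R 4.3.3 was run on it with its trend and robust options. It took genes with at least 10 in at least 3 libraries and had the group as sole term. Tests were two-sided at a Benjamini-Hochberg threshold of 0.05 over 14668 genes, and n was 3 in each group. The script was tested on simulated data. The alternatives were edgeR 4.0.16 and DESeq2 1.42.0 on recovered reads, TMM and quantile scaling, pseudocounts of 0.5 and 5, other filters, removal of trends on GC content and length (values for 97.0% of genes), a block for the replicate number, and each library left out.

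Members were named by a rule: those past the threshold, a list of members with known roles, the highest and lowest level per subunit, the largest non-passing changes, and up to 3 passing genes per related list. The members, lists and motifs were chosen with earlier results of these data known. Coordinates and exon lengths are from GENCODE M21, promoters from RefSeq. Protein sequences were not used here.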

Additional observations from a re-analysis of the deposited data

How the results depend on the processing

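Over 16 alternatives, Mrpl38, Lrpprc, Mars2, Elac2 and Senp7 kept their direction and passed the test throughout. Leaving out each library in turn gave 1619 to 4702 changed genes in all, 1 to 8 mitoribosomal genes higher and 0 to 6 lower, with a median log2 fold change of -0.03 to 0.10. By subunit the ranges were 1 to 4 higher and 0 to 3 lower in the large subunit, and 0 to 4 higher and 0 to 3 lower in the small subunit. For assembly, translation factor, aminoacyl-tRNA and transcription genes the counts higher were 0 to 2, 1 to 3, 1 to 4 and 0 to 1. The replicate block gave 4175 changed genes, 6 mitoribosomal genes higher and 3 lower (1 in the large and 2 in the small subunit) and 4 translation factors higher. Whether the replicate numbers pair the samples was not settled. Deviations of same-numbered libraries correlated at 0.130, 0.062 and 0.251, the last being the highest of any pair. Control replicate 1 was closest to SENP7 replicate 2 (0.141), and the lowest value was -0.220, for control replicate 1 with SENP7 replicate 3. Removing trends on GC content and length gave 4 members higher and 5 lower (2 and 3 by subunit, with 1 small-subunit gene higher) at a median of 0.02, while 24.3% of all genes were called. Quantile scaling and a mean of at least 50 each gave 1 lower member, in the small subunit. DESeq2 and no filter left 1 small-subunit gene higher, DESeq2, quantile scaling and no filter left 0 assembly genes higher, and no filter left 1 aminoacyl-tRNA gene. The cause of these shifts was not tested. Among the genes named by the rule, signs reversed in non-passing ones near 0. With GC and length removed these were Mrpl11 (-0.0072), Mrps5 (-0.00032), Mrps18c (-0.015) and Ptcd3 (-0.026), and with quantile scaling Mrps18b (0.010). With each library left out the log2 fold change ran from -0.041 to 0.183 in Mrpl12, -0.074 to 0.107 in Mrpl11, -0.098 to 0.090 in Mrps12, -0.076 to 0.012 in Mrps7, -0.051 to 0.060 in Mrps5, -0.041 to 0.078 in Mrpl45, -0.138 to 0.015 in Mrpl58, -0.067 to 0.025 in Mrps18b, -0.059 to 0.113 in Mrps18c, -0.026 to 0.057 in Ptcd3 and -0.102 to 0.042 in Aurkaip1. With 3 libraries per group, the median half-width of a member's 95% interval was 0.19 on the log2 scale, before any adjustment for the number of genes.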
